A study of Mus musculus with 6 samples.

Results

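The genes described here are Atxn1, its paralog Atxn1l, the repressor gene Cic and 5 genes known as targets of Cic (Etv1, Etv4, Etv5, Spry4 and Spred1), 8 of the 19938 genes tested. The set was chosen from the measured rise of Atxn1 in Bach2 knockout thymocytes, and the other 7 genes were chosen by what is known of Cic. All 8 had a probe set annotated with their symbol alone, and each gene was read from its probe set with the highest mean. CD4 single-positive thymocytes of male mice of C57BL/6 background were profiled on 6 arrays, 3 for each genotype (wildtype and Bach2 knockout). The cells were sorted from mixed bone marrow chimeras, in which lethally irradiated Rag1 knockout males had received marrow depleted of mature lineages from Bach2 knockout (Ly5.1-) and wildtype (Ly5.1+) males in equal parts. Hosts and donors were 8 weeks old and the thymi were taken 2 months after transfer. Hosts without Rag1 lack their own lymphocytes of the T and B lineages, while their thymic stroma remains. The sources used here do not say which part of Bach2 was removed. The Ly5.1 allele, a form of the surface protein encoded by Ptprc, differed together with the knockout.

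Capicua, the product of Cic, is a DNA-binding repressor with a high-mobility-group box. Ataxin 1 and its paralog, the product of Atxn1l, bind it, stabilise it and take part in its repression, and phosphorylation after Ras and ERK signalling relieves that repression. Its known targets include the PEA3 group of ETS transcription factors (Etv1, Etv4, Etv5) and feedback inhibitors of Ras and ERK signalling of the Sprouty and Spred families. In mouse T cells, loss of Cic is known to raise Etv5 and to expand follicular helper cells. Expansion of a glutamine stretch in human ataxin 1 causes a spinocerebellar ataxia. Bach2 encodes a basic leucine zipper repressor that binds sites resembling those of AP-1.

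Capicua binds octamers of the form TGAATGAA, TGAATGGA, TCAATGAA or TCAATGGA. RefSeq promoter windows of assembly GRCm38.p6 reached from 250 bases before to 50 bases after an annotated start. Results are given for 5 of the 8 genes (Atxn1l, Cic, Etv1, Etv5 and Spred1), in 8 windows of 300 bases. No window was at hand for Atxn1 or Etv4. Spry4 was removed after the search, so the counts for the set do not cover it. The shares over all windows were left whole. Searched on both strands, 0 of these 8 windows held one of the octamers, which 3.84% of all 32851 windows held. The shorter core TGAATG, searched after the Etv5 sequence had been seen and overlapping with the first pair of octamers, was in the windows of Etv5 and Atxn1l. A start of Etv5 held 3 copies, at -242, -198 and -129 relative to that start. A core was present at least 1 time in 12.7% and at least 3 times in 0.17% of all windows. The sequence TGANTCA, the core of AP-1 and Bach sites, was in 0 of the 8 windows and in 7.81% of all windows. The window of Etv5 and that of Atxn1l are shown because they are the only ones of these 8 windows with a core. Capitals mark the core on either strand (TGAATG or CATTCA), and each is printed in the direction of its gene, the minus strand.
Etv5, chr16:22438319-22438618: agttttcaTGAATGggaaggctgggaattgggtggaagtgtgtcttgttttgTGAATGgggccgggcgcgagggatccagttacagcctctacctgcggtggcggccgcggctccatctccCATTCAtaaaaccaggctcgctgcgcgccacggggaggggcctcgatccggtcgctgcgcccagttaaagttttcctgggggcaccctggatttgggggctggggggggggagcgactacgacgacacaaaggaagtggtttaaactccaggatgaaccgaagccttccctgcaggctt
Atxn1l, chr8:109737731-109738030: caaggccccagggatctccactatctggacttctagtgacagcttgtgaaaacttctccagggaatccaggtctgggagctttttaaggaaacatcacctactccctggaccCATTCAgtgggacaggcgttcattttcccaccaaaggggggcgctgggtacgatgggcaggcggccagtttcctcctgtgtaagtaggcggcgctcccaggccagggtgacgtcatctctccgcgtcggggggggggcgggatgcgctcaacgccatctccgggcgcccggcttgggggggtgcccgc

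The arrays correlated at 0.981 to 0.991 (Pearson's r over the 35556 probe sets, a description only), and no pair shared more than 150 identical values. Bach2 was at 7.89, 8.20 and 8.05 in the wildtype and at 6.50, 6.42 and 6.52 in the knockout arrays, which follows the labels. In the whole comparison 70 genes (0.351%) were higher and 43 (0.216%) lower in the knockout at an adjusted p under 0.05 (limma, Benjamini-Hochberg over all 19938 genes), together 0.567%. Cd4 was at 10.33 to 10.43 on the 6 arrays and Cd3e at 11.39 to 11.48. Cd8a, which CD4 single-positive cells should have lost, was at 7.67 to 8.90. The value of 8.90 was that of knockout replicate 3, and the next highest was 7.90, in knockout replicate 2. In sorted populations such as these, fewer cells of a type and less RNA per cell cannot be told apart.

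Atxn1 was high in all 3 knockout arrays. Its log2 values were 6.47, 6.49 and 5.54 for wildtype replicates 1 to 3 and 8.43, 7.97 and 8.14 for knockout replicates 1 to 3. The groups did not overlap, and wildtype replicate 3 lay lowest. The means were 6.17 ± 0.54 and 8.18 ± 0.23 (SD, n = 3 each), a difference of 2.01 on the log2 scale or 4.04-fold, the second largest rise among the genes tested. As this rise chose the set, it is given as a description, without a test.

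The annotation lists a second Atxn1 probe set, which the rule did not choose because its mean is lower. It measures the same RNA samples, so it bears on the probes and not on the replicates. Its log2 values were 5.59, 5.70 and 5.31 in wildtype cells and 7.43, 7.20 and 7.32 in knockout replicates 1 to 3. It too was lowest in wildtype replicate 3 and highest in knockout replicate 1, with a difference of 1.78. Without wildtype replicate 3, the difference at the first probe set was 1.70.

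**Figure D1:**
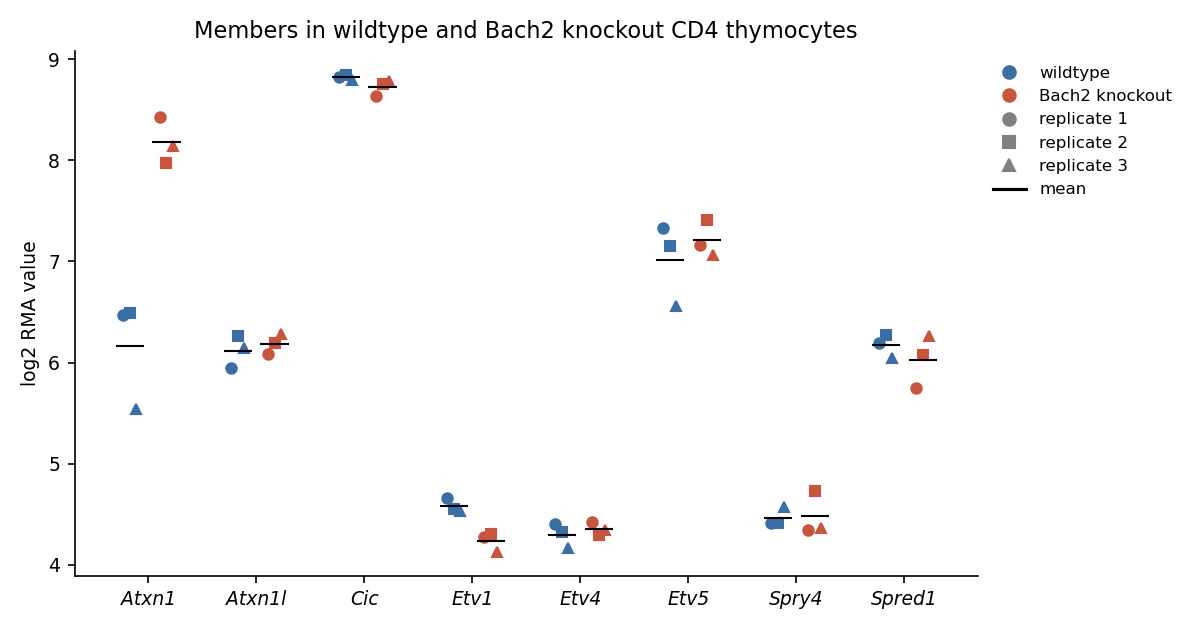
Log2 RMA values of the 8 genes (vertical axis) by gene (horizontal axis) on 3 wildtype (blue) and 3 Bach2 knockout (red) arrays, with the mean as a bar and the replicate by symbol. Atxn1 lies at 5.54 to 6.49 in wildtype cells and 7.97 to 8.43 in knockout cells, while 5 of the other 7 genes overlap between genotypes.

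The genes beside Atxn1 in the order of the GRCm38.p6 gene table did not pass the test. On one side these were Mylip, Dtnbp1 and Jarid2, with log2 differences of -0.01, -0.10 and -0.07. On the other side 5033430I15Rik differed by 0.34 ± 0.17 (standard error), Stmnd1 by 0.22 ± 0.11 and Rbm24 by 0.06 ± 0.11 (limma, adjusted p of 0.786, 0.806 and 0.992). Of these 6 neighbours, Stmnd1 alone had knockout values that were all above the wildtype values. None of the 8 genes of the set is on the chromosome of Bach2 or of Ptprc in that table (0 of 8 for each).

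The genes with a pattern most like that of Atxn1 were the pseudokinase gene Prag1, the long non-coding RNA gene Mirt1, the chemokine receptor gene Ccr4, the prolyl hydroxylase gene Egln3 and Ctla2a, an inhibitor of cysteine proteases whose probes may not tell it from its paralog Ctla2b. Likeness was the root mean square difference between log2 values centred on each gene's mean, over the 6 arrays, and was 0.29 for Prag1, 0.32 for Mirt1, 0.37 for Ccr4, 0.38 for Egln3 and 0.42 for Ctla2a, against a median of 1.08 over 18265 named genes. Prag1 (6.63), Mirt1 (4.99), Ccr4 (8.96) and Ctla2a (5.32) were, like Atxn1, lowest in wildtype replicate 3. Egln3 was lowest in wildtype replicate 1, at 6.05. In the knockout, Egln3, Mirt1 and Ctla2a were highest in replicate 1, as Atxn1 was, and Prag1 and Ccr4 were not. These genes were chosen by likeness over the same 6 arrays, so a shared lowest or highest array was favoured by the choice. The measure also rests mostly on the rise of Atxn1 that chose the set. A gene with a similar rise scores low and a gene without one scores high, which sets the median. The 5 genes differed by 1.36 (Ctla2a) to 1.88 (Egln3), so their scores only describe a similar rise.

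Neither the paralog of ataxin 1 nor its repressor partner passed the test. Atxn1l, whose product can form the same complex with Capicua, was at 5.94, 6.26 and 6.14 in wildtype cells and 6.08, 6.20 and 6.28 in knockout cells. These values overlap, and the difference was 0.07 ± 0.11 (standard error; 95% interval -0.17 to 0.32; limma, adjusted p = 0.987).

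Cic itself was at 8.82, 8.85 and 8.80 in wildtype cells and 8.64, 8.76 and 8.79 in knockout cells. Every knockout value was below every wildtype value, but the gap between knockout replicate 3 and wildtype replicate 3 was small. The difference was -0.10 ± 0.09 (95% interval -0.30 to 0.11; limma, adjusted p = 0.968). Groups set apart in this direction were found for 6.57% of all genes, and in the other direction for 5.13%. The arrays measure RNA, and the amount or activity of the Capicua protein was not measured.

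Of the PEA3 factors, Etv5 had the largest positive difference and the widest spread. Its values were 7.33, 7.15 and 6.56 in wildtype cells and 7.16, 7.41 and 7.06 in knockout replicates 1 to 3. They overlap, and wildtype replicate 3, in which Atxn1 was lowest, was also lowest here. The difference was 0.20 ± 0.18 (95% interval -0.21 to 0.61; limma, adjusted p = 0.963), and without wildtype replicate 3 it was -0.03. A second probe set of Etv5 was at 5.88, 6.05 and 5.63 in wildtype cells and 6.05, 5.93 and 5.91 in knockout cells, a difference of 0.11 with wildtype replicate 3 again lowest.

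Etv1 was lower in each knockout array than in any wildtype array. It was at 4.66, 4.55 and 4.53 in wildtype cells and 4.28, 4.30 and 4.13 in knockout cells. The difference of -0.34 ± 0.10 (95% interval -0.56 to -0.13) had an unadjusted p of 0.00502 and did not pass over all genes (limma, adjusted p = 0.294). Its other probe set, at 2.25 to 2.63 on the 6 arrays, differed by -0.14 with overlapping groups. Both probe sets had means under 4.94, the median of all values.

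Etv4 was at 4.40, 4.33 and 4.17 in wildtype cells and 4.42, 4.30 and 4.35 in knockout cells. The groups overlap and the mean was again under the median of all values. Its difference was 0.06 ± 0.10 (95% interval -0.17 to 0.28; limma, adjusted p = 0.992).

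**Figure D2:**
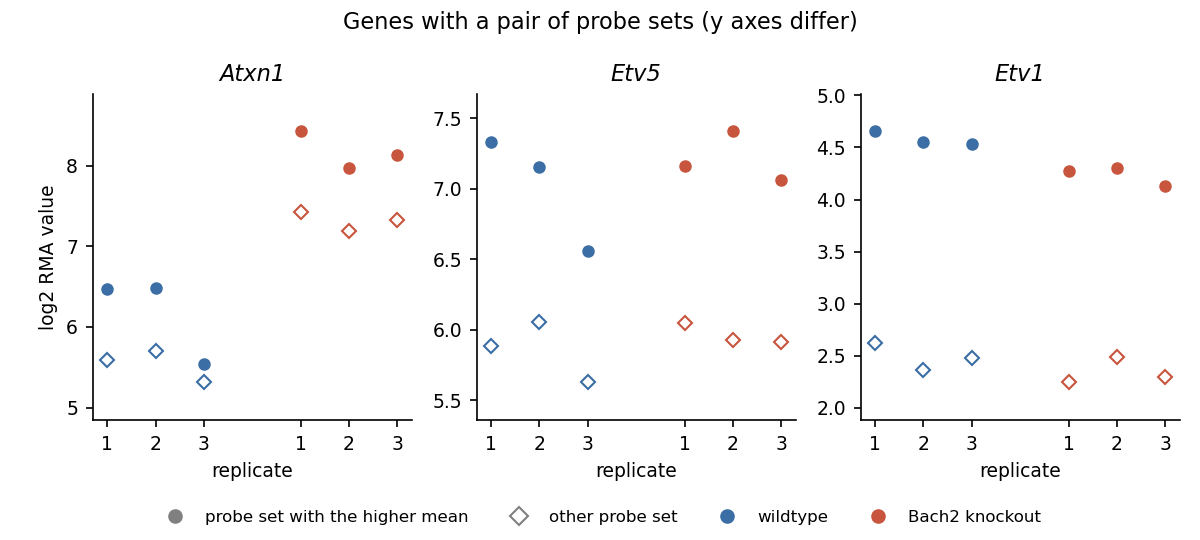
Log2 RMA values (vertical axes, which differ) of Atxn1, Etv5 and Etv1, the genes of the set with a pair of probe sets, by replicate (horizontal axis) in wildtype (blue) and Bach2 knockout (red) cells. Filled circles are the probe set used and open diamonds the other one; both Atxn1 probe sets are higher in every knockout array, by 2.01 and 1.78 on average, and both Etv5 probe sets are lowest in wildtype replicate 3.

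The feedback inhibitors also did not pass. Spry4, a Sprouty protein that restrains receptor signalling to ERK, was at 4.41, 4.42 and 4.57 in wildtype cells and 4.34, 4.73 and 4.36 in knockout cells. Its difference was 0.01 ± 0.12 (95% interval -0.26 to 0.28; limma, adjusted p = 0.998), with knockout replicate 2 highest and knockout replicate 1 lowest of the 6 arrays.

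Spred1, which recruits neurofibromin to the membrane and so restrains Ras, was at 6.19, 6.27 and 6.05 in wildtype cells and 5.75, 6.07 and 6.26 in knockout cells. The groups overlap, the knockout arrays being the more spread. The difference was -0.14 ± 0.13 (95% interval -0.44 to 0.16; limma, adjusted p = 0.964).

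Across the 7 genes other than Atxn1, 0 passed the test by limma over all genes (1, Etv1, at an unadjusted p under 0.05), against 0.567% of all genes past the adjusted and 6.91% past the unadjusted threshold. Non-overlapping groups were seen for 2 of the 7, Cic and Etv1, both lower in the knockout, against 11.7% of all genes in either direction. Of the 7 differences 4 were above 0 and 3 below, with a median of 0.01, against -0.01 over all genes. Their 95% intervals lay between -0.56 and 0.61, so that a change of more than 1.52-fold in either direction was outside the interval of each of them. This bound holds for the array values and not for the RNA amounts, and Etv1, Etv4 and Spry4 lay under the median of all values. A p that misses the threshold does not show that these genes were alike in both genotypes.

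**Figure D3:**
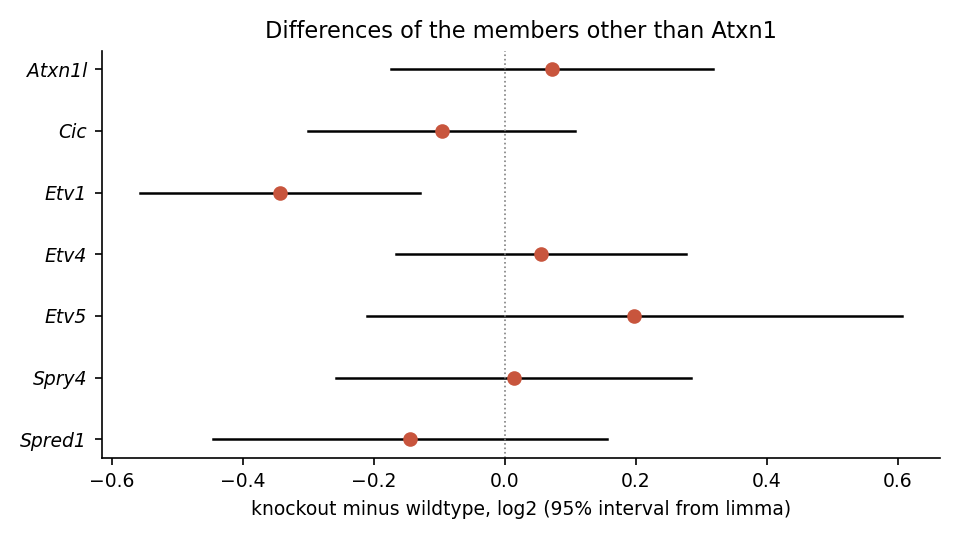
Knockout minus wildtype difference on the log2 scale (horizontal axis; points) with limma's 95% interval (lines) for the 7 genes other than Atxn1 (vertical axis). The differences run from -0.34 (Etv1) to 0.20 (Etv5), and 6 of the 7 intervals include 0.

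The wider list of genes held to be targets of Capicua or of ERK signalling had 19 further members, all measured. Of these 0 were higher and 1, Dusp4, was lower (limma, adjusted p under 0.05 over all genes; background 0.216% lower). The median of the list was -0.05, with 6 differences above 0 and 13 below, against 9204 above and 10734 below over all genes. Dusp4, Dusp6 and Spred2 had the smallest p of the list, and all of them were below 0.

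Dusp4, a nuclear phosphatase that inactivates ERK, was at 5.79, 6.68 and 6.55 in wildtype cells and 4.668, 4.996 and 5.263 in knockout cells. The groups did not overlap, and wildtype replicate 1 lay nearest to the knockout. Dusp4 fell by 1.36 ± 0.22 on the log2 scale (limma, adjusted p = 0.0261). Leaving out wildtype replicate 2 gave an adjusted p of 0.0815, wildtype replicate 3 gave 0.16, knockout replicate 1 gave 0.0864 and knockout replicate 2 gave 0.101, so that it passed in 2 of 6 leave-one-out fits, in which its difference ran from -1.64 to -1.19. It passed under 9 of all 15 alternatives, with an adjusted p from 0.00213 to 0.616, the highest being without moderation; with all probe sets in the fit it was 0.303.

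Dusp6, a cytoplasmic phosphatase of ERK and a classical readout of that pathway, was at 8.56, 8.56 and 8.28 in wildtype cells and 8.17, 8.21 and 8.24 in knockout cells. Its groups did not overlap either, wildtype replicate 3 lying just above knockout replicate 3. The difference was -0.26 ± 0.11 (limma, adjusted p = 0.636). Spred2, a relative of Spred1, differed by -0.27 ± 0.13 with overlapping groups (limma, adjusted p = 0.786). The Sprouty genes differed by -0.15 for Spry1, 0.15 for Spry2 and 0.14 for Spry3, and the cyclin gene Ccnd1 by -0.01, with overlapping groups in each case. Promoter windows were searched for 12 of the 19 genes, Dusp4 not among them. Of these 12 genes, 7 held at least 1 of the Capicua octamers, among them Dusp6 and Spry2. Maff had more than 1 window, and the share over all single windows was 3.84%, which was not counted by gene.

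**Figure D4:**
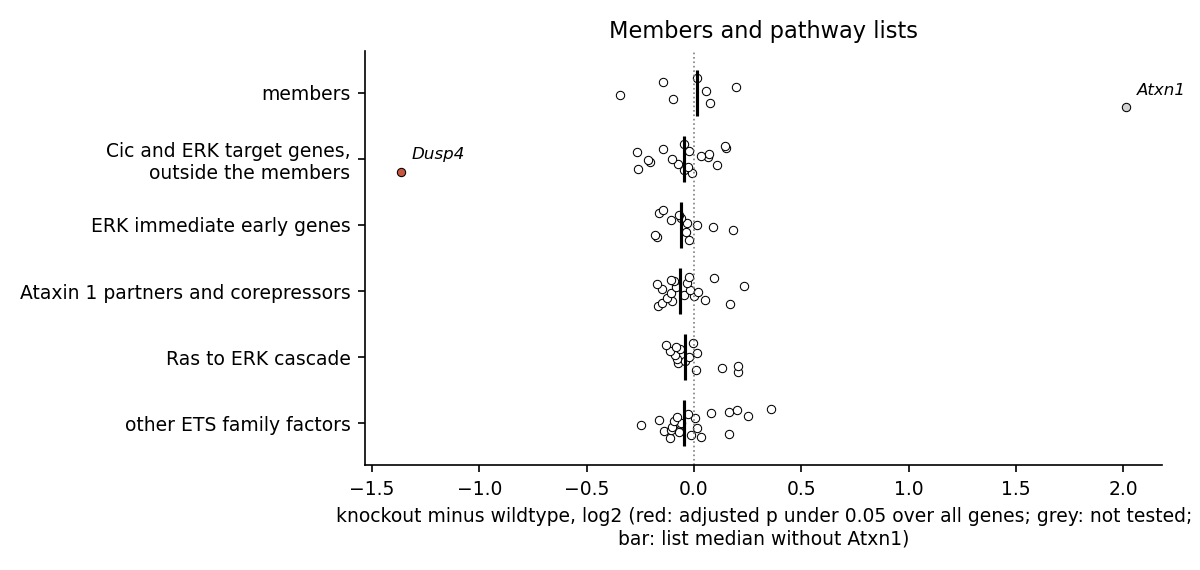
Knockout minus wildtype differences on the log2 scale (horizontal axis) of the set and of 5 lists of the pathway (vertical axis), 1 point per measured gene, with list medians without Atxn1 as bars. Dusp4, at -1.36, is the 1 list gene past an adjusted p of 0.05 (red), and Atxn1 (grey) was not tested; all other points lie between -0.34 and 0.36.

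Genes that act above or beside Capicua, and immediate early genes induced by ERK, did not pass in either direction. In the Ras to ERK cascade, 0 of 15 measured genes of 22 listed passed by limma (0 also at an unadjusted p under 0.05), with differences from -0.13 to 0.21 and a median of -0.04. The smallest p was for the kinase gene Araf, at 0.21 ± 0.12, followed by the scaffold gene Ksr1, at 0.21 ± 0.13. Among ERK-induced immediate early genes, 0 of 13 passed (0 unadjusted), with a median of -0.06. Egr2, a zinc finger factor induced by T cell receptor signals, was at 9.66, 9.67 and 9.66 in wildtype cells and 9.80, 9.78 and 9.95 in knockout cells, a difference of 0.18 ± 0.09 (limma, adjusted p = 0.81). The phosphatase gene Dusp1 lay in the other direction, at -0.17 ± 0.09 (limma, adjusted p = 0.822).

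Partners of ataxin 1 and corepressors gave 0 calls among 20 measured genes of 24 listed (limma; 0 at an unadjusted p under 0.05), with a median of -0.06. The splicing factor gene U2af2 differed by 0.23 ± 0.11 and Anp32a, whose product binds ataxin 1, by -0.17 ± 0.10 (limma, adjusted p of 0.751 and 0.858). Among 22 measured ETS factors outside the PEA3 group, of 23 listed, 0 passed and 2 had an unadjusted p under 0.05 (6.91% of all genes), with a median of -0.05. Fli1 was at 8.83, 8.95 and 8.88 in wildtype cells and 9.11, 9.05 and 9.26 in knockout cells, a difference of 0.25 ± 0.10 (limma, adjusted p = 0.591). Erf, a repressor of this family that ERK controls, was at 8.66, 8.76 and 8.43 in wildtype cells and 8.42, 8.30 and 8.38 in knockout cells, a difference of -0.25 ± 0.11 (limma, adjusted p = 0.707).

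Markers of other cells that a sort for CD4 thymocytes could hold were set beside Atxn1 and Dusp4. The mean of 6 regulatory T cell markers was 7.56, 8.39 and 8.43 in wildtype cells and 6.68, 6.53 and 6.66 in knockout replicates 1 to 3. All 6 differences were below 0. Of the 6, 4 (Foxp3, Ikzf2, Il2ra and Lrrc32) passed as lower by limma, against 0.216% of all genes. Leaving out an array, 1 to 5 of the 6 passed the test. There were 5 without wildtype replicate 1, 2 (Foxp3 and Ikzf2) without knockout replicate 2 and 1 (Foxp3) without wildtype replicate 3. Wildtype replicate 1 was the lowest wildtype array for the mean of these markers and for Dusp4, whereas for Atxn1 it was wildtype replicate 3. Of the 6 markers, Tnfrsf18 was instead lowest in wildtype replicate 2. In the knockout the marker mean was highest in replicate 1, where Dusp4 was lowest. The part of regulatory T cells in the values of Dusp4 and Atxn1 was not tested. The mean of 6 double-positive thymocyte markers was 5.74, 6.13 and 6.09 in wildtype cells and 6.02, 6.61 and 7.12 in knockout cells, which overlap. All 6 differences were above 0, with a median of 0.51. By limma 0 of the 6 passed, while 3 had an unadjusted p under 0.05, against 6.91% of all genes. Rag1 differed by 1.27 with overlapping groups. Arpp21 differed by 0.95 with every knockout value above every wildtype value (1 of the 6, against 5.13% of all genes).

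Knockout replicate 1 was the highest for Atxn1 and the lowest knockout array for the double-positive markers. The mean of 5 measured macrophage and monocyte markers, of 6 listed, was 4.54, 4.35 and 4.62 in wildtype cells and 5.01, 4.75 and 4.58 in knockout cells. Of these Lyz2, the lysozyme gene of myeloid cells, passed as higher by limma (1 of 5, against 0.351% of all genes). It did not pass without wildtype replicate 2 (limma, adjusted p = 0.0823) or 3 (0.153), nor without knockout replicate 1 (0.0821) or 2 (0.119). The other 4 did not pass. Adgre1 differed by -0.06, Csf1r by 0.08 and Cd68 by 0.31 with overlapping groups, and Itgam by -0.33 with every knockout value below every wildtype value. With Lyz2 and Itgam, 2 of the 5 had an unadjusted p under 0.05. The part of macrophages or double-positive cells in the level of Atxn1 was not tested. CD8 T cell (4 measured), B cell (4), dendritic cell (5), natural killer cell (5) and thymic epithelial (5) lists had 0 members past the test by limma, with 2, 0, 0, 2 and 0 at an unadjusted p under 0.05, against 6.91% of all genes. These were Eomes (-0.695) and Runx3 (-0.55) of the CD8 list and Prf1 (-0.48) and Klrk1 (-0.29) of the natural killer list. Each had every knockout value below every wildtype value, as 6.57% of all genes did. In each of these lists 2 genes differed by more than 0, in the CD8 list Cd8a (0.37) and Cd8b1 (0.13).

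**Figure D5:**
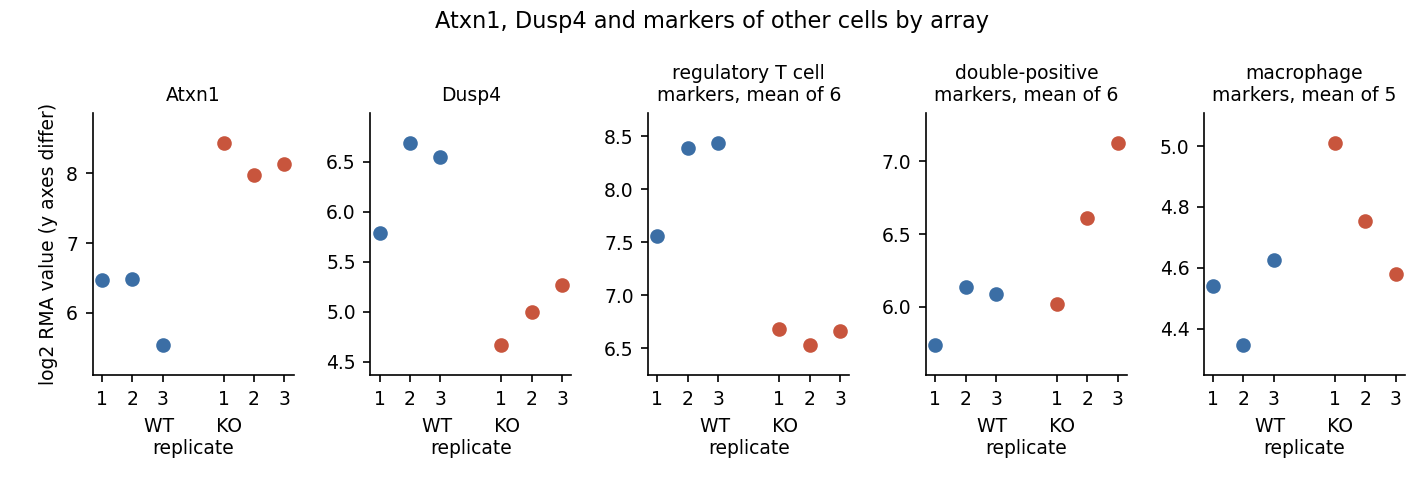
Log2 RMA values (vertical axes, which differ) of Atxn1, Dusp4 and the means of 3 marker lists on each array (horizontal axis: wildtype replicates in blue, Bach2 knockout replicates in red). The mean of regulatory T cell markers and Dusp4 share their lowest wildtype array, replicate 1, but not their lowest knockout array. Atxn1 is lowest in wildtype replicate 3. The means of double-positive and of macrophage markers overlap between the genotypes.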

How the data were processed

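The authors deposited log2 values, 1 per probe set and array, made with RMA and Partek per the submitters' processing notes, without versions. The scale was read from the values, with array medians of 4.93 to 4.97. No genome build is given in the sources used here. RMA gives the arrays 1 distribution, which hides any shift common to all genes. The number of arrays, 3 per group, limits the precision. Of 35556 probe sets, 21789 had a single symbol in the platform annotation, which can be old, 1621 had several and 12146 none listed; 19938 genes were tested. Genes without a single-symbol probe set were not analysed here.

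Differences were fitted with limma 3.58.1 in R 4.3.3 (lmFit, eBayes, two-sided) across all genes, without a filter on low values, with Benjamini-Hochberg adjustment and a threshold of 0.05. The procedure was tested on simulated data. The members, lists, tests and naming rules were chosen with earlier results of these data known. The rule named the set, called list genes and the 2 list genes with the smallest p, 5 genes most like Atxn1 and its 3 neighbours on each side; other genes named, and the marker genes singled out, were chosen after their values were seen. Replicates came from separate mice per the design text. The labels do not state that shared replicate numbers pair the arrays, so the numbers were not taken to pair them. Same-numbered arrays deviated together with r of 0.21, 0.11 and -0.07, which with 3 arrays per group cannot settle whether they were paired. Alternatives were another variance prior, an unmoderated fit, removal of dim genes, other scalings, averaged or all probe sets, array weights, the replicate number as a block and leaving out each array. Promoter windows were searched with Python 3.11.15 and plots drawn with matplotlib 3.10.9.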

Additional observations from a re-analysis of the deposited data

How the results depend on the processing

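Under each of the 15 alternatives, 0 of the tested genes of the set other than Atxn1 passed (Etv1, Etv4 and Spry4 were not tested without dim genes, under 14 alternatives therefore), the immediate early, partner, cascade and ETS lists gave 0 calls, and Atxn1 differed by 1.70 to 2.17 on the log2 scale. Differences near 0 changed sign when an array was left out, ranging from -0.0135 to 0.146 for Atxn1l, -0.0103 to 0.107 for Etv4, -0.031 to 0.3565 for Etv5 and -0.112 to 0.0818 for Spry4; those of Cic, Etv1 and Spred1 kept their sign. Leaving out each array gave 29 to 82 genes higher, 18 to 66 lower and 0 to 1 calls in the Capicua and ERK target list. Without moderation 1 gene was higher and 0 lower (limma's linear model), with 0 in that list. With all 35556 probe sets 29 were higher, 8 lower and 0 in that list, where more features are adjusted for, and with a trended, robust prior 73 were lower; beyond that the cause was not tested. With the replicate block, 79 genes were higher and 55 lower, and no call in the set or lists changed; wildtype replicate 2 deviated most like knockout replicate 3 (r = 0.17), not its own number. The median difference of all genes was -0.01 with median centring and with a second quantile normalization, as in the analysis reported. With 3 arrays per group, and with Etv1, Etv4 and Spry4 under the median of all values, small changes were not detectable.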
